A study of Homo sapiens with 8 samples.

Results

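Expression of 9 genes of retinoid metabolism and signaling was described in Kyse510 cells, an established human esophageal squamous cell carcinoma (ESCC) line, in which the histone-modifying enzymes LSD1 and G9a were inhibited or silenced. The 9 genes were taken by symbol (STRA6, DHRS3, ALDH1A1, ALDH1A3, CRABP2, CYP26B1, RARA, RARB, and RARG), and all 9 were found among the 34164 genes of the series. They were proposed with their fold changes against control already known, so the changes below are a description of chosen genes and carry no test.

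RNA-seq was performed on 8 libraries, with 1 library per condition and no replicates. In the inhibitor arm, cells received DMSO vehicle, 7 µM SP2509 (an LSD1 inhibitor), 7 µM UNC0642 (a G9a inhibitor), or both compounds, for 2 days. The doses within the combination are not stated separately. In the knockdown arm, a doxycycline- (Dox-) inducible shRNA against LSD1 or G9a was introduced by lentivirus, cells were selected with puromycin for 14 days, and each line was sequenced without Dox and after 2 days of Dox. By the labels, the control of each knockdown is thus the same line, which carries the hairpin without Dox. The published description also names a nonsilencing shRNA as control, of which no library was analysed here, and every knockdown change below is relative to the uninduced line. Whether each line is 1 clone is not stated in the sources used here, and no library separates the effect of Dox itself from that of the hairpin. LSD1 is a histone demethylase encoded by KDM1A, and G9a is a histone H3K9 methyltransferase encoded by EHMT2.

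Retinol enters cells through the receptor STRA6, is oxidized reversibly to retinal, and is then oxidized irreversibly by ALDH1A enzymes to retinoic acid (RA). DHRS3 works against this route by reducing retinal to retinol. CRABP2 carries RA to the nucleus, where the receptors RARα, RARβ, and RARγ bind DNA together with an RXR partner, and CYP26 enzymes such as CYP26B1 degrade RA. In stratified squamous epithelium, RA is known to restrain keratinization, and RARB, DHRS3, STRA6, and the CYP26 genes are known to be induced by RA in many cells.

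RAR and RXR pairs bind direct repeats of a hexamer, classically with 5 bases between both copies (a DR5 element). The hexamers AGGTCA and AGTTCA, as well as GGGTCA and GGTTCA, were searched on both strands in RefSeq promoter windows (GRCh38.p14), which run from 250 bases before to 50 bases after a start site. A DR5 element was present in 31 of 35116 windows (0.0883%), and in 1 of the 20 windows that belong to the 9 genes, a RARB window at chr3:25428013-25428312. The repeats spaced by 1 base (46 windows) or 2 bases (14 windows) were absent from all 20. The RARB element is shown because it sits at the one receptor gene that appeared with both inhibitors, beside the element in a window of CYP26A1, another RA hydroxylase. Both are read on the strand of their gene, 5′ to 3′, with the DR5 in capitals.
RARB: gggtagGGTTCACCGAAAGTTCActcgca
CYP26A1: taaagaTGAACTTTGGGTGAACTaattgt
The RARB element lies at chr3:25428210-25428226, 36 bases before the start site. The CYP26A1 element lies on the opposite strand at chr10:93073803-93073819, 73 bases before the start site. A match describes these letters only and says nothing about binding in these cells.

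Library totals were recovered from the deposited values and ranged from 15662035 to 17889466 reads. The silenced genes were checked first. KDM1A had 26.0 FPKM in the shLSD1 line without Dox and 6.29 FPKM with Dox, and Dox brought EHMT2 in the shG9a line from 7.85 to 4.76 FPKM. By reads, EHMT2 was 1.65-fold lower there (1.49 to 1.83), and KDM1A went from 26.4 to 35.8 FPKM in the same line. With both inhibitors EHMT2 had 5.38 FPKM against 11.1 FPKM with vehicle, 2.07-fold lower, and KDM1A had 32.0 against 40.7 FPKM. Epithelial markers, of which EPCAM and CDH1 are not particular to squamous cells, were present in every library. Of these 8 genes, 7 or 8 reached 1 FPKM, with a summed level of 334 to 1157 FPKM. Single genes differed. From vehicle to both inhibitors, TP63 went from 79.1 to 18.3 FPKM, SOX2 from 18.3 to 0.636, KRT5 from 427 to 163, and DSG3 from 28.6 to 9.63. CDH1 went from 65.2 to 60.8 FPKM, EPCAM from 139 to 206, KRT14 from 1.93 to 10.1, and KRT6A from 0.676 to 16.1. Of the markers of other cell types, 1 or 2 of 5 fibroblast, 0 or 1 of the 3 or 4 listed leukocyte, and 1 or 2 of 3 endothelial genes reached 1 FPKM. The summed endothelial level was 3.56 FPKM with vehicle and 12.4 FPKM with both inhibitors, and 5.54 and 14.5 FPKM in the shLSD1 line without and with Dox, mostly from CDH5 (11.8 and 14.0 FPKM in the higher libraries). Of the leukocyte genes, 0 to 2 were listed at 0 (CD3E was analysed in the knockdown arm only). The part of these genes in the results below was not tested.

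A gene was called when (FPKM + 1) differed at least 1.3-fold between a treated library and its control and its level was at least 1 FPKM in at least 1 of both libraries. The pseudocount understates the change of lowly expressed genes, so ratios of the reads per total, with exact 95% counting intervals, are given as well. These intervals cover counting error only and not the spread between cultures. In bulk RNA, fewer cells that express a gene and less RNA per cell cannot be told apart.

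In the inhibitor libraries, an enzyme that makes RA (ALDH1A3), an enzyme that removes it (CYP26B1), and RARA were higher than with vehicle, while RARG was lower. In the induced shRNA lines, by contrast, no gene of the 9 was called higher, and ALDH1A3, CRABP2, and RARA were lower in both. With SP2509, 3 of the 9 genes were called higher and 2 lower, where 21.0% and 39.9% of 13342 tested genes were called higher and lower. With UNC0642, 3 were higher and 3 lower, against 18.2% and 16.9% of 13244 genes. The combination had 5 higher and 3 lower, against 31.4% and 31.7% of 13907 genes. In the shLSD1 line 0 were higher and 4 lower (24.8% and 12.3% of 12970 genes), and in the shG9a line 0 were higher and 6 lower (32.9% and 17.6% of 13080 genes). Genes passing the minimum of 1 FPKM numbered 7 of 9 with SP2509 and with UNC0642 and 8 of 9 in the other 3 comparisons. Some called genes passed only through the library where they were higher. These were RARB with the combination, ALDH1A1 in the shLSD1 line, and CYP26B1 in the shG9a line, and such calls follow in part from the filter. The 3 inhibitor comparisons share 1 vehicle library. Calls were so frequent across all genes that a count of members in itself says little, and the sizes of single changes are given below.

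**Figure D1:**
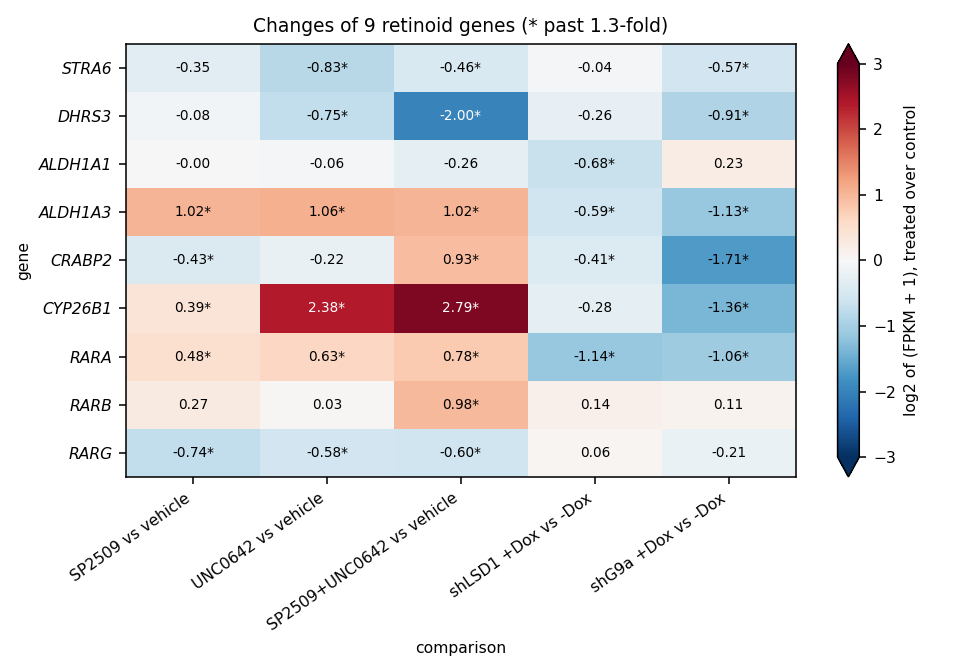
Each cell gives the log2 ratio of (FPKM + 1), treated over control, for 1 gene (rows) in 1 comparison (columns), with 1 library on each side and an asterisk for calls past 1.3-fold. Red cells (higher) stand in the 3 inhibitor columns for ALDH1A3, CYP26B1, and RARA, and the same genes are blue (lower) in both knockdown columns, without an asterisk for CYP26B1 in the shLSD1 line.

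The median log2 difference over the 9 genes was -0.002 for SP2509, -0.06 for UNC0642, and 0.78 for both together, where the medians over all tested genes were -0.21, -0.01, and -0.02. In the shLSD1 and shG9a lines it was -0.28 and -0.91, where all tested genes had medians of 0.13 and 0.18. The median shift of genes at 5 FPKM or more on both sides was -0.09 with SP2509, 0.11 in the shLSD1 line, and 0.14 in the shG9a line. Once each comparison was centred on this shift, 3 genes were higher and 1 was lower with SP2509, and 0 were higher and 5 lower in the shLSD1 line. Centring also changed the split over all genes, from 3219 higher and 1599 lower to 2209 and 2151 in the shLSD1 line, and from 4305 and 2298 to 2943 and 2940 in the shG9a line.

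The lines without Dox were compared with each other. They are 1 library each and carry different hairpins, so they give no spread between like cultures and none for the inhibitor arm. Between the uninduced shG9a and shLSD1 lines, 7.55% of 12449 genes were called, and 0 of the 9 genes, a count that cannot be set apart from this share. The log2 differences of the 9 genes lay between -0.21 (CYP26B1) and 0.02 (DHRS3), with a median size of 0.07 against 0.10 over all tested genes.

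Vehicle cells differed from both uninduced lines in several of the 9 genes. They had 48.8 FPKM of DHRS3 against 140 and 142 FPKM in the uninduced shLSD1 and shG9a lines, and 4.22 FPKM of RARA against 12.8 FPKM in each line. Averaged over both uninduced lines, CYP26B1 was 3.09-fold, STRA6 2.36-fold, and CRABP2 1.99-fold the vehicle level, while ALDH1A3 was at 1.05-fold. These levels stand in separately made tables, and arm, table, and handling of the cells cannot be told apart.

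**Figure D2:**
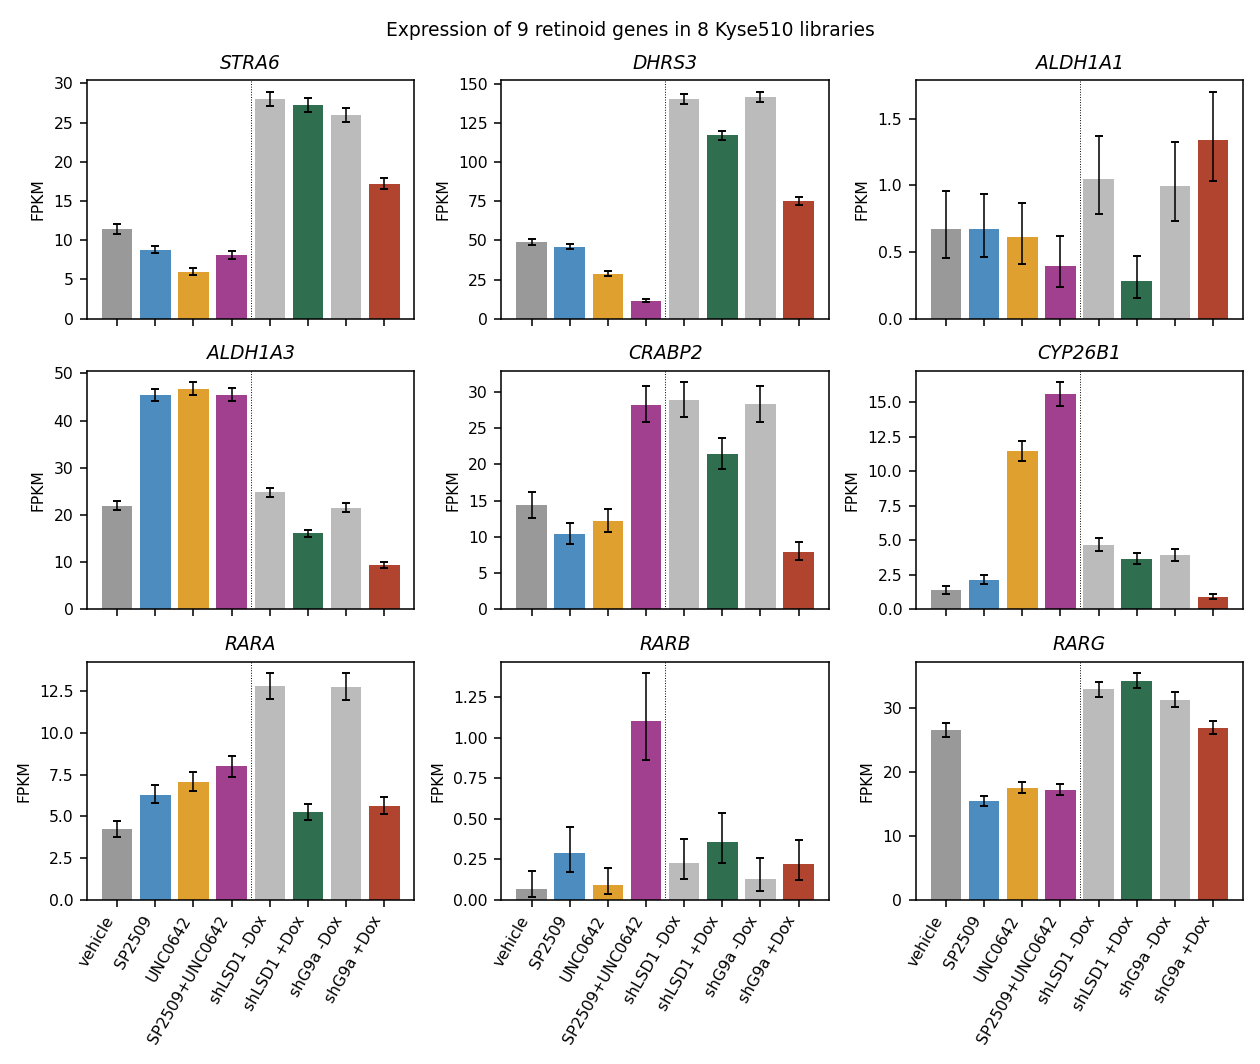
Bars show FPKM (vertical axes, from 0) of each of the 9 genes in the 8 libraries, inhibitor arm left and knockdown arm right of the dotted line, with exact 95% counting intervals. ALDH1A3 stands at 45.5 to 46.8 FPKM in the 3 inhibitor-treated libraries against 22.0 FPKM with vehicle, and CYP26B1 reaches 15.6 FPKM with both inhibitors.

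STRA6, the membrane receptor that takes up retinol (ENSG00000137868, GRCh38 chromosome 15 from 74179466 to 74212267), had 11.4 FPKM in vehicle cells, 8.80 after SP2509, 5.99 after UNC0642, and 8.07 after both. In the knockdown arm it had 28.0 FPKM in the shLSD1 line without Dox and 27.3 with Dox, and 26.0 and 17.2 FPKM in the shG9a line. Within each arm it was lowest where G9a was inhibited or silenced alone. The ratio of reads was 1.91-fold lower with UNC0642 (interval 1.75 to 2.09) and 1.51-fold lower in the shG9a line (1.43 to 1.59). The combination was 1.42-fold lower than vehicle and stood above UNC0642 alone, at 1.35-fold (1.23 to 1.48). In the shLSD1 line the difference was within counting error (1.03-fold lower, 0.983 to 1.08). STRA6 overlaps CCDC33 on the opposite strand over 9563 bases. The use of strand in counting is not given in the sources used here, and CCDC33 had 0.664 to 3.03 FPKM in the 8 libraries.

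DHRS3, which reduces retinal back to retinol (ENSG00000162496, chromosome 1 from 12567910 to 12617731), was the most highly expressed of the 9 genes in vehicle cells and in the 4 knockdown libraries. It had 48.8 FPKM in vehicle cells, 46.1 after SP2509, 28.7 after UNC0642, and 11.5 after both inhibitors. The shLSD1 line had 140 FPKM without and 117 with Dox, and the shG9a line 142 and 75.1 FPKM. The combination library stood far below the other 3 of its arm, at 4.26-fold less than vehicle (3.89 to 4.68), and only 0.820% of tested genes had a lower log2 value. UNC0642 alone was 1.70-fold lower (1.60 to 1.82) and the induced shG9a line 1.89-fold lower (1.82 to 1.96). With SP2509 alone the log2 difference was -0.08, and 0.01 once centred, so its sign depended on the scaling. Added to UNC0642, SP2509 was accompanied by a further 2.50-fold lower level (2.27 to 2.76).

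ALDH1A3 and ALDH1A1 oxidize retinal to RA. ALDH1A3 (ENSG00000184254, chromosome 15 from 100877714 to 100916626) had 22.0 FPKM in vehicle cells, 45.5 after SP2509, 46.8 after UNC0642, and 45.5 after both. It had 24.8 and 16.1 FPKM in the shLSD1 line without and with Dox, and 21.5 and 9.31 FPKM in the shG9a line. All 3 controls lay between 21.5 and 24.8 FPKM, with the inhibitor-treated libraries above this range and the induced lines below it. The ratio to vehicle was 2.07-fold with SP2509 (1.96 to 2.18), 2.13-fold with UNC0642 (2.02 to 2.25), and 2.07-fold with both (1.97 to 2.19). The combination matched SP2509 alone within counting error, with an interval of the ratio that included 1 (0.961 to 1.04). Dox was accompanied by 1.54-fold lower levels in the shLSD1 line (1.45 to 1.64) and 2.31-fold lower levels in the shG9a line (2.14 to 2.50).

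A pair of antisense genes overlaps ALDH1A3 on the opposite strand. One of them, AC015712.7, had 1.81 FPKM in vehicle cells, 32.7 after SP2509, 6.25 after UNC0642, and 2.71 after both. The other, AC015712.2, had 2.21, 8.31, 4.90, and 3.42 FPKM in the same order. Both were highest with SP2509, unlike ALDH1A3 itself, which was level across the treated libraries of that arm. Upon Dox, AC015712.7 went from 2.04 to 0.720 FPKM in shLSD1 cells and from 1.71 to 0.546 FPKM in shG9a cells. AC015712.2 went from 1.95 to 1.49 and from 1.71 to 1.24 FPKM. In the knockdown arm both were thus lower with Dox, as was ALDH1A3. Without strand, reads of a gene and of its antisense partner cannot be told apart.

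ALDH1A1 (ENSG00000165092, chromosome 9 from 72900662 to 73080442) was near the detection limit, with 30, 34, 31, and 19 reads in the vehicle, SP2509, UNC0642, and combination libraries. Its levels there were 0.395 to 0.672 FPKM, below the minimum for a call. The shLSD1 line had 53 reads without Dox and 14 with Dox (1.05 and 0.281 FPKM), a 3.73-fold lower level (2.04 to 7.29), and the shG9a line had 47 and 66 reads. In the shLSD1 line ALDH1A1 passed the minimum level only through the uninduced library, so its call there follows in part from the filter. ALDH1A3 exceeded ALDH1A1 in every library, from 6.96-fold in the induced shG9a line to 115-fold with the combination.

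CRABP2, the carrier that delivers RA to its receptors (ENSG00000143320, chromosome 1 from 156699606 to 156705816), had 14.3 FPKM in vehicle cells, 10.4 after SP2509, 12.1 after UNC0642, and 28.3 after both. In the shLSD1 line it had 28.9 and 21.4 FPKM without and with Dox, and in the shG9a line 28.3 and 7.98 FPKM. It was thus lower than vehicle with SP2509 and higher with both inhibitors together. The combination was 1.97-fold above vehicle (1.69 to 2.30), 2.71-fold above SP2509 (2.31 to 3.21), and 2.33-fold above UNC0642 (1.99 to 2.72). SP2509 alone was 1.38-fold below vehicle (1.14 to 1.67), a call that was lost after centring, and the UNC0642 interval of 0.984 to 1.42-fold lower included no difference. The induced shG9a line was 3.55-fold lower (2.95 to 4.28), the largest decrease in log2 terms among the 9 genes in that line, and the induced shLSD1 line was 1.35-fold lower (1.18 to 1.53).

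CYP26B1, which hydroxylates RA and so clears it (ENSG00000003137, chromosome 2 from 72129238 to 72148038), had 1.39 FPKM in vehicle cells, 2.14 after SP2509, 11.4 after UNC0642, and 15.6 after both. The shLSD1 line had 4.68 and 3.67 FPKM without and with Dox, and the shG9a line 3.91 and 0.910 FPKM. It had the highest log2 change of the 9 genes with UNC0642 (2.38) and with the combination (2.79). The 109 reads with vehicle compare with 1025 with UNC0642 and 1318 with both, ratios of 8.23-fold (6.75 to 10.1) and 11.2-fold (9.22 to 13.8). Of all tested genes, 99.7% had a lower log2 value with UNC0642 and 99.1% with both. SP2509 alone was 1.54-fold higher (1.21 to 1.97). In the shG9a line CYP26B1 went the other way and was 4.29-fold lower with Dox (3.35 to 5.56), and in the shLSD1 line it was 1.28-fold lower (1.10 to 1.48) and not called. After centring it was called in the shLSD1 line too, at a log2 difference of -0.39.

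RARG was the main receptor by level. RARG (ENSG00000172819, chromosome 12 from 53210567 to 53232980) had 26.6 FPKM in vehicle cells, 15.5 after SP2509, 17.5 after UNC0642, and 17.2 after both. The shLSD1 line had 33.0 FPKM uninduced and 34.3 FPKM induced, and the shG9a line 31.4 and 27.0 FPKM. The 3 treated libraries of the inhibitor arm lay close together below their shared control. They were 1.72-fold (1.61 to 1.84), 1.52-fold (1.42 to 1.62), and 1.54-fold (1.45 to 1.65) lower for SP2509, UNC0642, and both. Adding SP2509 to UNC0642 made a difference within counting error (1.02-fold lower, 0.948 to 1.09). RARG was called in neither knockdown line, and in the shLSD1 line its log2 difference of 0.06 became -0.05 after centring.

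RARA (ENSG00000131759, chromosome 17 from 40309192 to 40357643), the second receptor by level, had 4.22 FPKM in vehicle cells, 6.30 after SP2509, 7.09 after UNC0642, and 8.0 after both. Dox took it from 12.8 to 5.25 FPKM in shLSD1 cells and from 12.8 to 5.63 FPKM in shG9a cells. The inhibitor-treated libraries were above their control and the induced lines below theirs, and the induced lines stood within the range of the inhibitor arm. RARA was 1.49-fold higher with SP2509 (1.3 to 1.72), 1.68-fold with UNC0642 (1.46 to 1.93), and 1.89-fold with both (1.65 to 2.18). It was 2.44-fold lower in the shLSD1 line (2.18 to 2.73) and 2.27-fold lower in the shG9a line (2.03 to 2.54). Between the uninduced lines the ratio was 0.999 (0.915 to 1.09).

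RARB (ENSG00000077092, chromosome 3 from 25174332 to 25597932), which is commonly silenced in carcinomas and holds the DR5 element shown above, was nearly off in vehicle cells. It had 4 reads in vehicle cells, 19 after SP2509, 6 after UNC0642, and 69 after both, which correspond to 0.0691, 0.289, 0.0907, and 1.11 FPKM. In the knockdown arm it had 15 and 23 reads in the shLSD1 line and 8 and 14 reads in the shG9a line, without and with Dox. The combination library thus stood above the other 7. It was 16-fold above vehicle, with a wide interval of 5.98 to 60.4 because vehicle rests on 4 reads, and 3.83-fold above SP2509 (2.28 to 6.74) and 12.2-fold above UNC0642 (5.32 to 34.4). RARB passed the minimum level only through the combination library, so its call there follows in part from the filter. SP2509 alone was 4.18-fold above vehicle (1.39 to 16.9), without reaching 1 FPKM. In both knockdown lines the interval included no difference, at 0.777 to 3.20-fold and 0.654 to 4.6-fold. The 3′ end of RARB overlaps that of TOP2B by 28 bases on the opposite strand, and TOP2B had 13.6 FPKM in the combination library against 38.5 FPKM with vehicle, the reverse order.

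CYP26A1, whose promoter holds the other DR5 shown, stayed below 1 FPKM in all 8 libraries and was not tested. It had 6, 4, 14, and 21 reads in the vehicle, SP2509, UNC0642, and combination libraries, 6 and 1 reads in the shLSD1 line, and 4 and 17 reads in the shG9a line. The 31 windows with a DR5 belong to 29 genes, of which 5 or 6 passed the minimum level in a comparison, too few for a count to be read against all genes.

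The relative make-up of the receptors differed with treatment. RARG made up 86.1% of the summed FPKM of the 3 receptors in vehicle cells, 70.1% after SP2509, 70.9% after UNC0642, and 65.4% after both, and RARA made up 13.7%, 28.5%, 28.7%, and 30.4%. The RARB share was 0.224% with vehicle and 4.20% with the combination. Upon Dox, RARG went from 71.7% to 86.0% in shLSD1 cells and from 70.8% to 82.2% in shG9a cells. In the knockdown lines RARG itself was not called, and its larger share went with the lower RARA level. In the inhibitor arm RARG was lower and RARA higher. The summed level itself was lower in every treated library than in its control, at 30.9 FPKM with vehicle against 22.1 to 26.3 FPKM, 46.0 against 39.9 FPKM in the shLSD1 line, and 44.3 against 32.8 FPKM in the shG9a line.

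ALDH1A3 and DHRS3 act on the same retinal in opposite directions. The ratio of their levels was above its control in the inhibitor-treated libraries and below it in the induced lines. It was 0.450 in vehicle cells, 0.987 after SP2509, 1.63 after UNC0642, and 3.97 after both. In the knockdown arm it was 0.177 uninduced and 0.137 induced for shLSD1, and 0.152 and 0.124 for shG9a. The arms thus differed in their untreated controls already, so ratios are read within an arm only. Against vehicle the ratio in the combination rested on both genes, and against the single inhibitors on DHRS3, since ALDH1A3 was about level with them. These are ratios of transcript levels, and neither retinal nor RA was measured.

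**Figure D3:**
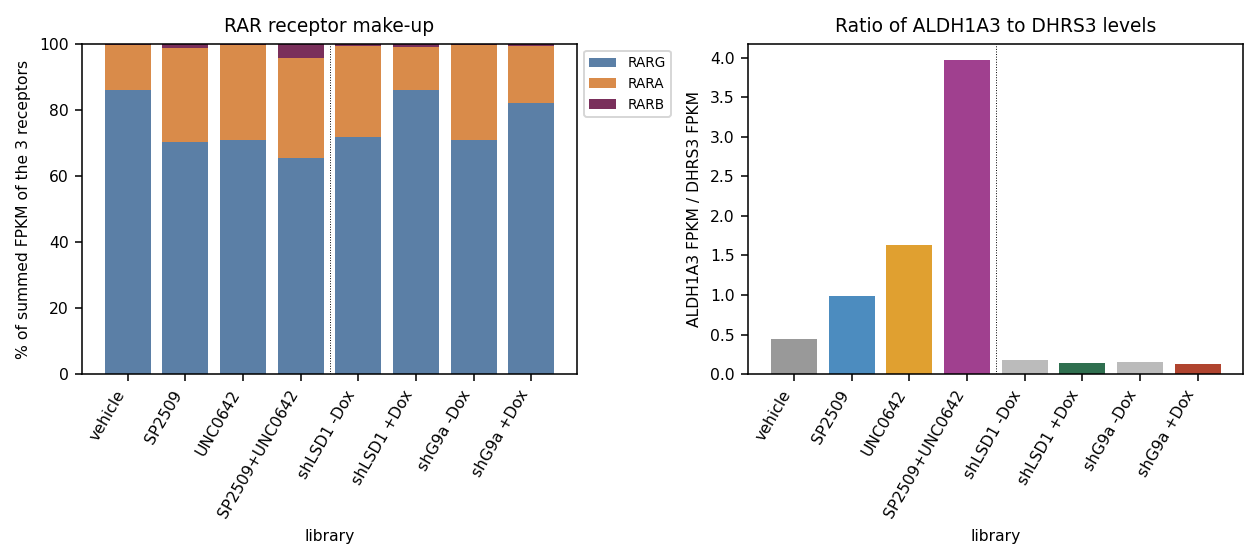
The left panel shows the share of each RAR gene in the summed FPKM of RARA, RARB, and RARG, and the right panel the ratio of ALDH1A3 to DHRS3 FPKM, both by library with 1 library per bar and the arms split by a dotted line. RARG stands at 86.1% with vehicle and 65.4% with both inhibitors, and the right-hand ratio goes from 0.450 to 3.97 in the same libraries. In the knockdown arm the ratio is below 0.2 both without and with Dox.

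The order of the 9 levels was read in each library from FPKM, which is scaled per length. With vehicle it was DHRS3, RARG, ALDH1A3, CRABP2, STRA6, RARA, CYP26B1, ALDH1A1, and RARB, and no neighboring counting intervals overlapped. With the combination it became ALDH1A3, CRABP2, RARG, CYP26B1, DHRS3, STRA6, RARA, RARB, and ALDH1A1, where RARG with CYP26B1 and STRA6 with RARA could not be separated. CYP26B1 thus moved from the seventh place to the fourth and DHRS3 from the first to the fifth. In the uninduced shLSD1 line DHRS3 and RARG again led, and CRABP2 and STRA6 could not be separated.

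The combination was also set against each inhibitor alone. Against SP2509, 3 of 8 tested genes of the 9 were higher (CYP26B1, CRABP2, and RARB) and 1 was lower (DHRS3), where 41.8% and 24.8% of 13658 genes were higher and lower. Against UNC0642 the called genes were again CRABP2, RARB, and CYP26B1 (higher) and DHRS3 (lower), where 27.7% and 27.1% of 13637 genes were called. CYP26B1 in the combination was 7.28-fold above SP2509 (6.25 to 8.52) and 1.36-fold above UNC0642 (1.26 to 1.48). RARB was below 1 FPKM with either inhibitor alone and entered both comparisons only through the combination library, so its calls here follow in part from the filter. Both comparisons use the same combination library.

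A wider set of 62 retinoid pathway genes was taken from lists by role, of which 56 had a row in the inhibitor table and 57 in the knockdown table. With SP2509, 7 of the 41 that passed the minimum level were higher and 16 lower, and with UNC0642 8 were higher and 5 lower. The combination had 8 higher and 17 lower of 41. The shLSD1 line had 12 higher and 7 lower of 40, and the shG9a line 5 higher and 15 lower of 40. Over all tested genes, the shares called higher and lower were 21.0% and 39.9% for SP2509, 18.2% and 16.9% for UNC0642, 31.4% and 31.7% for both compounds, 24.8% and 12.3% for shLSD1, and 32.9% and 17.6% for shG9a. The pathway counts for SP2509, UNC0642, and the shLSD1 line were near these shares. The lists were chosen with earlier results of these data known, so no count in any comparison is a result about the pathway. Lists of 10 genes or fewer, below, are given as counts beside the same shares. The medians of the 41 or 40 genes were -0.13, -0.03, -0.07, 0.13, and -0.05 in that order, on the log2 scale.

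Of 10 tested enzymes that interconvert retinol and retinal, 2 were higher and 5 lower with SP2509, 2 and 2 with UNC0642, 3 and 5 with both compounds, 6 and 0 in the shLSD1 line, and 4 and 1 in the shG9a line. The SP2509 and UNC0642 counts were near the shares over all genes (21.0% and 39.9%, and 18.2% and 16.9%). These shares were 31.4% and 31.7% with both compounds, 24.8% and 12.3% in the shLSD1 line, and 32.9% and 17.6% in the shG9a line. RDH10, the main retinol dehydrogenase of development, had 4.73 FPKM in vehicle cells, 2.31 after SP2509, 13.0 after UNC0642, and 26.2 after both. Dox took it from 5.58 to 32.1 FPKM in shLSD1 cells and from 6.22 to 17.9 FPKM in shG9a cells. It was therefore higher in both induced lines, at 5.75-fold (5.24 to 6.32) and 2.88-fold (2.62 to 3.18), where ALDH1A3 was lower. DHRS9, another retinol dehydrogenase, was 3.62-fold higher with SP2509 (3.20 to 4.10), 3.58-fold with UNC0642 (3.16 to 4.05), and 4.51-fold with both (3.99 to 5.10). AKR1B10, a retinal reductase, had 70.9 FPKM with vehicle and 10.3 with SP2509, 6.88-fold lower (6.11 to 7.77). ADH1C had 5.60 FPKM with vehicle and 0.270 with UNC0642 (163 and 9 reads). It passed the minimum level there only through the vehicle library, so its call follows in part from the filter.

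Among the partner receptors, 3 of 4 were tested. RXRA, the usual partner of RARs in epithelium, had 25.8 FPKM with vehicle, 9.13 with SP2509, and 10.2 with both, 2.83-fold (2.68 to 2.99) and 2.54-fold (2.41 to 2.69) lower. PPARD, an RXR partner that can bind RA delivered by FABP5, had 6.59 FPKM in vehicle cells, 10.5 after SP2509, 14.2 after UNC0642, and 35.7 after both. Of the 3 partner receptors, 1 was higher and 1 lower with SP2509, 1 and 0 with UNC0642, and 1 and 1 with both. In the knockdown lines 0 of the 3 were called. Over all genes, 21.0% and 39.9% were higher and lower with SP2509, 18.2% and 16.9% with UNC0642, and 31.4% and 31.7% with both. The shares were 24.8% and 12.3% in the shLSD1 line, and 32.9% and 17.6% in the shG9a line. With 3 genes, these counts cannot be set apart from the shares. FABP5 was 1.5-fold higher with UNC0642 (1.37 to 1.65) and was lower in the induced lines, 3.85-fold for shLSD1 (3.40 to 4.37) and 2.12-fold for shG9a (1.91 to 2.36).

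All 10 RAR coregulator genes were tested, and 6 were lower after SP2509, 2 after UNC0642, and 5 after both, where 1 was higher. Over all genes, 39.9%, 16.9%, and 31.7% were lower in these comparisons, so the UNC0642 count was about that of any genes. The shares called higher were 21.0%, 18.2%, and 31.4%. In the shLSD1 line 2 were higher and 0 lower (24.8% and 12.3% over all genes). In the shG9a line 0 were higher and 1 lower (32.9% and 17.6%). With 10 genes these counts are a description only. NCOR1, the corepressor bound by RARs without ligand, was 3.13-fold lower with the combination (2.93 to 3.35), and EP300, a coactivator acetyltransferase, was lower with SP2509 (14.4 against 5.32 FPKM) and higher with both (19.5 FPKM). EP300 was also 1.53-fold higher in the induced shLSD1 line (1.42 to 1.65), and NRIP1 was 3.25-fold lower in the induced shG9a line (2.92 to 3.63). In the uptake and storage list, 4 of 11 genes were tested. With SP2509 and with UNC0642 0 were called, and with both 0 were higher and 2 lower. The shLSD1 line had 1 higher and 1 lower, and the shG9a line 0 and 2. The shares over all genes are those given for the coregulators, and with 4 genes these counts are a description only. SCARB1, a carotenoid and lipoprotein receptor, was lower with the combination (62.3 against 34.1 FPKM) and in the shLSD1 (89.7 against 67.2 FPKM) and shG9a lines (83.4 against 47.3 FPKM).

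Genes known to respond to RA were counted next. Of 8 tested, 2 were higher and 3 lower with SP2509, 3 and 0 with UNC0642, 2 and 2 with both compounds, 3 and 3 in the shLSD1 line, and 1 and 6 in the shG9a line. Over all genes, 21.0% and 39.9% were higher and lower with SP2509 and 31.4% and 31.7% with both compounds, close to the counts of this list. The shares were 18.2% and 16.9% with UNC0642, 24.8% and 12.3% in the shLSD1 line, and 32.9% and 17.6% in the shG9a line. With 8 genes these counts are a description only. RARRES1, a retinoic acid receptor responder, had 3.90 FPKM in uninduced and 75.3 FPKM in induced shLSD1 cells, 19.3-fold more (16.4 to 22.8), and was 3.98-fold lower with SP2509 (2.39 to 6.91). With SP2509 it passed the minimum level only through the vehicle library (2.00 against 0.502 FPKM), so this call follows in part from the filter. TGM2, a transglutaminase induced by RA, was 2.01-fold higher with the combination (1.72 to 2.36) and 4.25-fold lower in the shG9a line (3.79 to 4.78). Its controls differed, at 1.83 FPKM with vehicle against 12.1 and 11.2 FPKM in the uninduced shLSD1 and shG9a lines. The part of these levels in the opposite changes was not tested. RARRES3 was 4.29-fold higher with SP2509 (3.02 to 6.21) and 3.74-fold higher in the shG9a line (3.10 to 4.53). In the shLSD1 line it was higher with Dox as well, at 14.7 against 7.37 FPKM (334 and 170 reads).

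Keratinization genes that RA is known to lower were led by IVL (involucrin, a cornified envelope precursor). IVL had 10 reads in vehicle cells, 324 after SP2509, 402 after UNC0642, and 374 after both, ratios of 28.5-fold, 35.2-fold, and 34.7-fold whose lower bounds were 15.3, 18.9, and 18.7. It was lower with Dox in the shLSD1 line, 7.15-fold (4.65 to 11.5), and in the shG9a line, 11.3-fold (6.28 to 22.5). Vehicle cells had 0.297 FPKM, against 4.55 and 3.65 FPKM in the uninduced shLSD1 and shG9a lines. The induced lines had 0.637 and 0.322 FPKM. The part of these control levels in the opposite changes was not tested. In each of these comparisons IVL passed the minimum level only through its higher library, so its calls follow in part from the filter. TGM1, the cross-linking enzyme of the cornified envelope, was 6.15-fold lower in the shG9a line (5.15 to 7.40) and 1.89-fold lower with the combination (1.59 to 2.25). Of the tested genes of this list, 2 of 4 were higher after SP2509, 1 of 4 after UNC0642, and 1 of 4 after both, where 1 was lower, and 2 of 3 and 3 of 3 were lower in the shLSD1 and shG9a lines. Over all genes, 21.0%, 18.2%, and 31.4% were higher in the inhibitor comparisons, 31.7% were lower with both compounds, and 12.3% and 17.6% were lower in the lines. With 3 or 4 genes, chosen with earlier results known, the counts are a description only in every comparison.

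**Figure D4:**
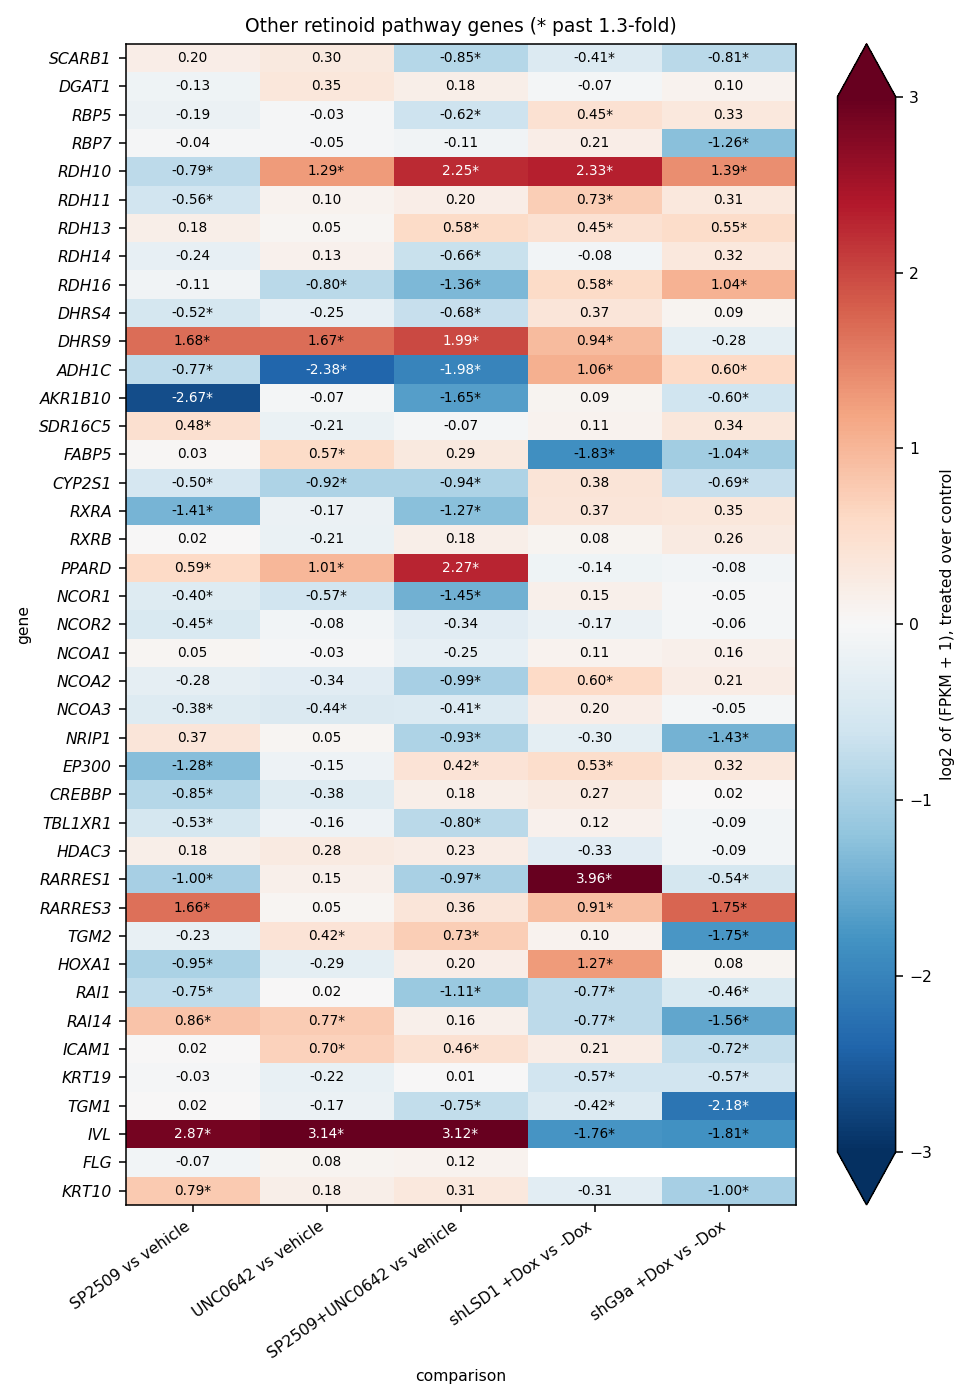
Each cell gives the log2 ratio of (FPKM + 1), treated over control, for the 41 other retinoid pathway genes that passed 1 FPKM in at least 1 comparison (rows, grouped by role from uptake to keratinization), with an asterisk for calls past 1.3-fold and white for a gene below 1 FPKM in both libraries. RDH10, PPARD, and IVL are the darkest red rows with the combination, and RARRES1 the darkest red cell of the shLSD1 line, at 3.96.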

How the data were processed

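Paired-end reads of 150 bases were filtered for quality and adapters and aligned to GRCh38.87 by the authors, who deposited FPKM (fragments scaled by gene length and library total) in 2 tables of 4 libraries each, one per arm. The aligner, counting tool, and strand setting are not given in the sources used here. Coordinates were used as deposited.

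Library totals were recovered from small RNA genes, whose length is their genomic span: FPKM × length gave whole multiples of 1 read (within 0.001 reads) for 100% of these values. The reads of other genes followed from the smallest length that made all 8 values whole, or, where the tables used different lengths (as for RXRA, KDM1A, and CDH5), all 4 values of a table. Each of the 9 genes had 1 length in both tables. Fold changes were log2 of (FPKM + 1) ratios, and all genes with at least 1 FPKM in 1 of both libraries were tested. With 1 library per condition there is no test between conditions. Clopper-Pearson intervals (95%) for read ratios cover counting error only. The steps were tested on simulated data.

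The 9 genes, the lists, and the rules were chosen with earlier results of these data known. All 9 genes were named, and of the pathway lists up to 2 called genes per direction, list, and comparison. RARB and CYP26A1 motifs, overlapping genes, and genes followed across comparisons outside that rule were chosen after their values were seen. TTR, ADH4, CRABP1, STRA8, and LOR were not analysed here. Python 3.11.15, SciPy 1.17.1, and pandas 2.3.3 were used. Alternatives were other pseudocounts, filters, fold thresholds, centring, a counting criterion, and a pooled uninduced control.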

Additional observations from a re-analysis of the deposited data

Results flagged for a closer look

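In 5 cases, 1 of the 9 genes was called in opposite directions by the inhibitor and by the silencing of the same enzyme. Each case rests on 1 library per condition, and the difference was not tested. The share of all genes called in opposite directions was not computed. Calls were frequent over all genes, so the count of 5 is no result about these genes. For LSD1, ALDH1A3 had a log2 change of 1.02 with SP2509 and -0.59 in the shLSD1 line, a difference of 1.61, and RARA had 0.48 and -1.14, a difference of 1.63. For G9a, CYP26B1 had 2.38 with UNC0642 and -1.36 in the shG9a line, a difference of 3.74. ALDH1A3 had 1.06 and -1.13 (difference 2.18), and RARA had 0.63 and -1.06 (difference 1.69). The controls of the arms differed for RARA (4.22 FPKM with vehicle against 12.8 FPKM without Dox) and for CYP26B1 (1.39 against 4.68 and 3.91 FPKM), and were close for ALDH1A3 (22.0 against 24.8 and 21.5 FPKM). The part of these control levels in the opposite changes was not tested. In the same direction, 1 gene was called for LSD1 (CRABP2, lower) and 2 for G9a (DHRS3 and STRA6, lower).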

How the results depend on the processing

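The number of the 9 genes called was 5 (SP2509), 6 (UNC0642), 8 (both compounds), 4 (shLSD1), and 6 (shG9a). At a 2-fold threshold it was 1, 2, 3, and 1 in the first 4 comparisons, which follows from the stricter threshold, and 4 in the shG9a line. Pseudocounts of 0.1 and 0.01, no filter, a minimum of 5 FPKM, centring, a counting interval excluding 1, and the mean of both uninduced lines as control kept each count within 1.5 times of it. No called change of the 9 genes turned its direction under any of these. Centring turned the sign of 4 of 45 values and the pooled control that of 1 of 18, none of them called. No paired analysis was possible because each condition has 1 library, and none could be left out. Depth limits RARB (4 to 69 reads) and ALDH1A1 (14 to 66 reads) most.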

Other observations

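Profiles over the 8 libraries, each centred within its table on the log2(FPKM + 1) scale, were compared with those of 10451 protein-coding genes. The 2 nearest to CYP26B1 were MYEOV (root mean square difference 0.11) and KRT6B (0.23). For ALDH1A3 they were CLCA4 and EGLN1 (0.14 each), for RARA PPAN (0.09) and MAPRE3 (0.12), for DHRS3 AASS (0.16) and SYT8 (0.18), and for CRABP2 GTPBP2 (0.15) and HSPA13 (0.20). STRA6 and RARG varied too little to be compared, and ALDH1A1 and RARB were too low in 1 of the tables.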
